A study of Drosophila melanogaster with 4 samples.

Results

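The homothorax (hth) locus was described here as the 180 kb of chromosome arm 3R that follow base 6300000 on FlyBase release 5, an interval given for the long hth gene with its flanks. Its members were all regions enriched for monomethylated lysine 4 of histone H3 (H3K4me1) that overlapped this window by at least 1 base. There were 15 such regions of 7177 in replicate 1, 27 of 9903 in replicate 2 and 24 of 9501 in another list, deposited for the series and named the combined list below. The rule fixes the interval by position alone, although the locus was proposed with earlier results of these data known.

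The study used nuclei of wild-type third-instar larvae of the strain Oregon-R and mapped the mark by chromatin immunoprecipitation and sequencing (ChIP-seq). There were 4 samples, namely 2 ChIP samples made with the H3K4me1 antibody ab8895 and 2 inputs, each of which was the background of its like-numbered ChIP list. All samples share strain, stage and genotype, so there is no treated group and the values are set between replicates and against the rest of 3R. The labels name no dissected tissue, and in nuclei of these larvae a strong mark in few cells and a weak mark in many cells cannot be told apart. The lists carry no read counts, so the depth behind them is unknown.

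The hth gene encodes a homeodomain protein of the TALE class, related to the vertebrate Meis proteins. Hth binds the homeodomain protein Extradenticle and is needed for its transport into the nucleus, and both proteins bind DNA together with Hox proteins. In larval imaginal discs hth is known for its role in proximal leg and wing parts, in antennal identity and in limiting the eye field. H3K4me1 is a mark of enhancers, including ones that are poised or have been used, and of sequence beside active promoters.

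No annotation of release 5 was used, so no region is assigned to an exon, an intron or a start site of hth. In the RefSeq gene table of release 6, used for gene order alone, the antisense RNA gene asRNA:CR44018 and the microRNA gene mir-4944 overlap hth. The next gene towards lower coordinates there is lncRNA:CR45576, a long non-coding RNA gene, and the nearest protein-coding genes are Cyp12e1 towards lower and CG6465 towards higher coordinates. How these genes sit against the regions below was not tested.

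H3K4me1 at hth lay mostly in a long stretch of closely spaced regions in the middle of the window, with sparse sequence on either side. Replicate 1 covered 46.4% of the window (83.5 kb) and replicate 2 covered 51.2% (92.2 kb), which gives 48.8% ± 3.44 (SD, n = 2). The combined list covered 60.3% (108.5 kb). The replicates differed by 1.10-fold in covered bases but by 1.80-fold in the number of regions. Median region widths were alike, at 3036 bases in replicate 1 and 3059 in replicate 2, but the widest region measured 28.5 kb in the former and 13.5 kb in the latter. Replicate 2 and the combined list also name depleted regions, 39 and 17 in all, of which 0 lay in the window. The nearest was 112.1 kb away, in the combined list.

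**Figure D1:**
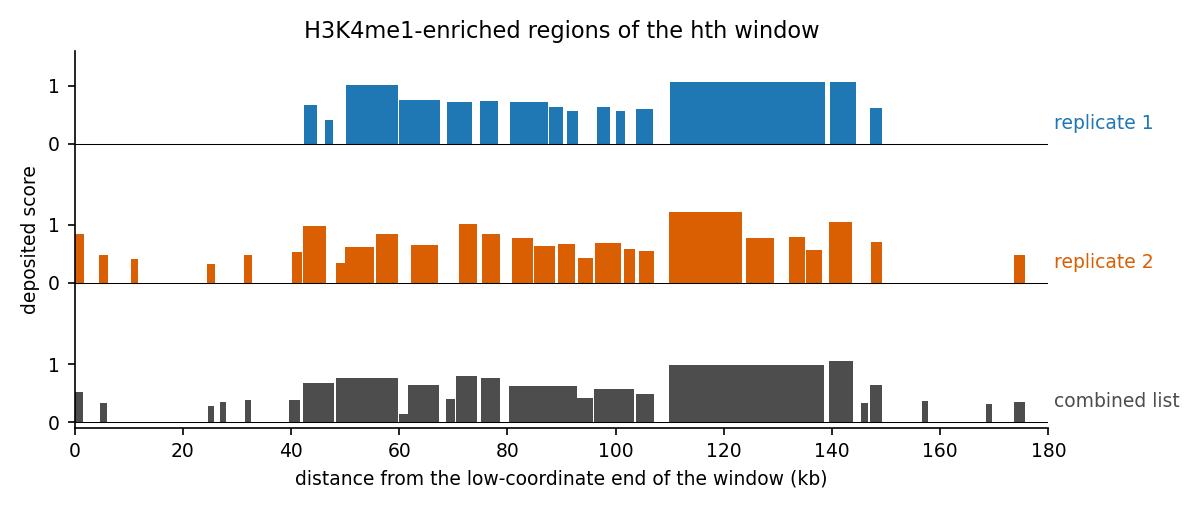
Enriched regions of the hth window in the replicate lists and the combined list, as bars whose width is the region and whose height is its deposited score, against the distance in kb from the low-coordinate end of the window. In replicate 1 all 15 regions lie in the central stretch, whereas replicate 2 and the combined list add short regions on both sides.

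When regions at most 5 kb apart were joined, all 3 lists placed the central stretch between nearly the same ends. Replicate 1 then gave a run of 106.9 kb at 3R:6342446-6449313 from all 15 of its regions. Replicate 2 gave a run of 109.2 kb at 3R:6340092-6449258 from 21 regions, and the combined list a run of 109.7 kb at 3R:6339657-6449307 from 16. At the high-coordinate end the replicates stopped 55 bases apart, and at the low-coordinate end they started 2354 bases apart. The joining distance was chosen after the gaps at hth had been seen, and it decides how long the run is. Across 3 kb the run was 39.2 kb in replicate 1 and 72.5 kb in replicate 2, while the combined list still gave 109.7 kb.

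Most of the run was covered in each list, which joining regions across at most 5 kb favours by construction. Regions filled 78.1% of it in replicate 1 and 75.7% in replicate 2, or 76.9% ± 1.72 (SD, n = 2), and 89.4% in the combined list. Of the covered bases of the window, the run held 100% and 89.6% in the replicates and 90.4% in the combined list. Between the outer ends of the replicate runs, 68.5 kb lay in both replicates, 15.0 kb in replicate 1 alone and 14.1 kb in replicate 2 alone. Only 11.6 kb of that stretch lay in neither replicate.

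The high-coordinate part of the run carried the widest region and the highest scores. The score is a single deposited value per region, above 0 in enriched regions, and is compared only within a list. In the combined list the widest region was 3R:6409846-6438446, at 28.6 kb with a score of 0.98. Replicate 1 covered 99.0% of it with a single region, 3R:6410126-6438662, of 28.5 kb and score 1.06. Replicate 2 covered 85.6% of it with 4 regions, of which 3R:6409846-6423339 (13.5 kb, score 1.23) was the widest and the highest-scoring of its 27 regions at hth. The same sequence was therefore a single domain in replicate 1 and a row of 4 in replicate 2.

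The highest score of the combined list at hth belonged to the next region, 3R:6439492-6443794, which was 4.30 kb wide and scored 1.05. Replicate 1 covered 97.1% of it with a region of score 1.06, and replicate 2 covered 96.5% with a region of score 1.05. Among regions of like width (20 groups of equal size per list) its score lay above 93.9% in the combined list. The matching regions lay above 87.4% in replicate 1 and above 80.4% in replicate 2. It was narrow for its score, in contrast to the 28.6 kb region beside it, whose score lay above 40.6% of regions of like width.

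Towards the low-coordinate end of the run the mark was split into more regions with lower scores in the combined list. The region 3R:6348378-6359809 (11.4 kb, score 0.77 in the combined list) was covered to 83.5% by a single region of replicate 1 and to 95.4% by 3 regions of replicate 2. The region 3R:6342225-6347883 (5.66 kb, score 0.67) was covered to 69.9% and 73.8%. At the first site replicate 1 scored 1.00 and the regions of replicate 2 scored 0.34, 0.62 and 0.85. At the second site the regions of replicate 1 scored 0.66 and 0.41 and that of replicate 2 scored 0.98. Both sites were less completely covered by the replicates than the 4.30 kb region described above.

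Between these 2 sites and the wide domain lay 4 further regions named by width or score. The region 3R:6361586-6367313 (5.73 kb, score 0.64) was covered to 100% by replicate 1 and to 87.0% by replicate 2, and 3R:6370530-6374445 (3.92 kb, score 0.79) to 72.4% and 83.8%. The region 3R:6380353-6392772, 12.4 kb wide with a score of 0.61, was covered to 91.8% and 86.2%, by 3 regions in each replicate. For its width it scored low, above 4.21% of regions of like width in the combined list. The region 3R:6395939-6403368 (7.43 kb, score 0.56) was covered to 56.8% by replicate 1 and to 90.8% by replicate 2. It was also low for its width, above 12.4% of like regions.

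At some sites of the run a replicate was nearly or wholly empty, and 3 of them were chosen here after their values were seen. At 3R:6392824-6395858, a region of 3.04 kb in the combined list, the replicates were far apart. Replicate 2 covered 92.2% of it with a region of score 0.44, while replicate 1 covered 9.95% and there had its longest gap inside the run, of 3.35 kb. The reverse held at 3R:6359895-6361571 and 3R:6368647-6370262, where replicate 1 covered 96.6% and 87.9% and replicate 2 covered 0%. The raw scores of these sites in the combined list were 0.41, 0.14 and 0.40, against a median of 0.62 over the 16 regions of the run. Score rose with width in that list (Spearman rho 0.79), and the 3 were narrower than the median of the run, 3683.5 bases. Among regions of like width their scores lay above 33.3%, 13.5% and 92.0%, so only the first 2 were low for their width.

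**Figure D2:**
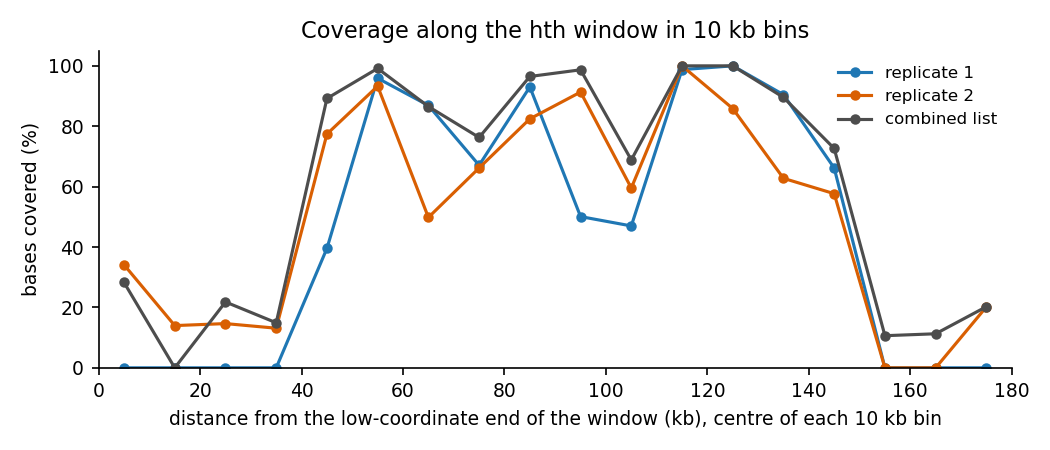
Share of bases covered in each 10 kb bin of the hth window (y axis, in percent) against the distance of the bin from the low-coordinate end (x axis, in kb), for both replicates and the combined list. All 3 lines rise at 40 to 50 kb and fall after 150 kb, and in each the bin from 110 to 120 kb is covered to at least 98.8%.

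Along the window the rise and the fall of coverage were steep. In the 10 kb bin from 30 to 40 kb coverage was 0% in replicate 1 and 13.1% in replicate 2, and in the bin from 50 to 60 kb it was 95.9% and 93.3%. The bin from 110 to 120 kb was covered to 98.8% and 100%, and the bin from 120 to 130 kb to 100% and 85.9%. At the other end coverage went from 66.2% and 57.7% in the bin from 140 to 150 kb to 0% in both replicates in the bin from 150 to 160 kb. Both replicates dipped in the bin from 100 to 110 kb, to 47.0% and 59.5%. Elsewhere they parted, with 86.9% in replicate 1 and 49.8% in replicate 2 in the bin from 60 to 70 kb, and 50.1% and 91.3% in the bin from 90 to 100 kb. Across the 18 bins the Spearman rho of the replicates was 0.85, a description of neighbouring bins that share regions.

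The flanks held few regions, mostly narrow and of low raw score, and among the replicates all of these came from replicate 2. Replicate 1 had 0 regions in either flank. In replicate 2 the low-coordinate flank of 40.1 kb held 5 regions covering 18.9% of it, with scores from 0.32 to 0.84, and the high-coordinate flank of 30.7 kb held 1, of score 0.48. The region of score 0.84, 3R:6298051-6301797, crosses the edge of the window and belongs as much to the sequence before it. The combined list held 5 and 3 regions in its flanks, covering 15.5% and 13.7%. Median scores there were 0.35 and 0.34, against 0.62 in the run, and median widths 1148 and 1128 bases, against 3683.5. Among regions of like width, scores in the flanks of the combined list lay above 10.1 to 74.3%. Those in the flanks of replicate 2 lay above 37.2 to 82.4%, so the flank regions were not all low for their width.

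Gaps inside the run are at most 5 kb by the way it was joined, so the longest gaps of the window lie in the flanks. In the combined list the 3 longest gaps were 3R:6306019-6324622 (18.6 kb), 3R:6457703-6468468 (10.8 kb) and 3R:6449308-6456638 (7.33 kb). Replicate 1 was empty over the first 2, and replicate 2 covered 9.13% and 0% of them. The longest gap of replicate 1 was its whole low-coordinate flank, of 42.4 kb, which is cut by the window edge and runs on beyond it. That of replicate 2 was 24.4 kb, at 3R:6449259-6473614, and lay wholly inside the window. Median gaps measured 1852.5 and 1965 bases in the replicates and 1230 bases in the combined list.

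Inside the run, 12 stretches lay in no list, and together they made up 8.50% of it (9.32 kb). The longest was 3R:6407087-6409845, at 2.76 kb, directly before the 28.6 kb region. It was followed by 3R:6378643-6380352 (1.71 kb), 3R:6367531-6368646 (1.12 kb) and 3R:6444383-6445410 (1.03 kb). The wide domain was thus bounded by a break that all 3 lists shared on its low-coordinate side. On its high-coordinate side 814 bases in no list separated it from the region with the highest combined score.

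The share of hth regions seen in both replicates is set here beside that of the whole lists. All 15 regions of replicate 1 (100%, 95% Wilson interval 79.6 to 100%) overlapped replicate 2, where 90.1% of the whole list did. Replicate 1 was met by 19 of the 27 hth regions of replicate 2 (70.4%, interval 51.5 to 84.1%), where 75.3% of the whole list met it. The intervals cover counting error only, and neighbouring regions are not independent. Both intervals hold the share of the whole list, but intervals this wide over neighbouring regions cannot decide whether hth differs from it.

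The 8 regions of replicate 2 that replicate 1 did not meet were narrow, at 1312 to 3747 bases, and 6 of them lay in the flanks. Their median score was 0.48, against 0.70 for the 19 that were met, and their median width 1596.5 bases, against 3803. Among regions of like width their scores lay above 37.2 to 82.4%, and those of the 19 above 8.69 to 91.9%. The lower raw scores thus went with narrower regions. Shared bases made up 63.9% of the union of the replicates in the window. This was close to the 65.4% of all of 3R, and the window stood at rank 85 of 155 by this measure.

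Of the 24 regions of the combined list, 12 met both replicates (50.0%, interval 31.4 to 68.6%), where 60.7% of the whole list did. These 12 held 83.0% of the region bases. Their median width was 4981 bases, against 1096 to 1662 in the other groups, and an overlap of 1 base favours wide regions. The same share of bases over the whole list was not computed. A further 6 met replicate 2 alone (25.0%), where 23.2% of the whole list did, and 2 met replicate 1 alone (8.33%, against 7.66% of the whole list). The remaining 4 met neither (16.7%, interval 6.68 to 35.9%, against 8.50% of the whole list). The 4 were between 1037 and 1233 bases wide, with scores from 0.31 to 0.37. The combined list belongs to the series with these ChIP samples, and how it was made is not stated, so these shares cannot be read as independent agreement.

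Against all 180 kb windows of 3R, hth was more covered than most. The arm was tiled from its first base into 155 windows, of which hth is number 36. In replicate 1 it ranked 32nd by covered share, above 79.9% of the other windows. Windows of that list ran from 0% to 68.5%, around a median of 28.1%. In replicate 2 it ranked 28th, above 82.5%, with a median of 35.0% and a highest value of 75.7%. In the combined list it ranked 15th, above 90.9%, with a median of 38.8% and a highest value of 79.7%. These ranks are a description, and no test was made.

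**Figure D3:**
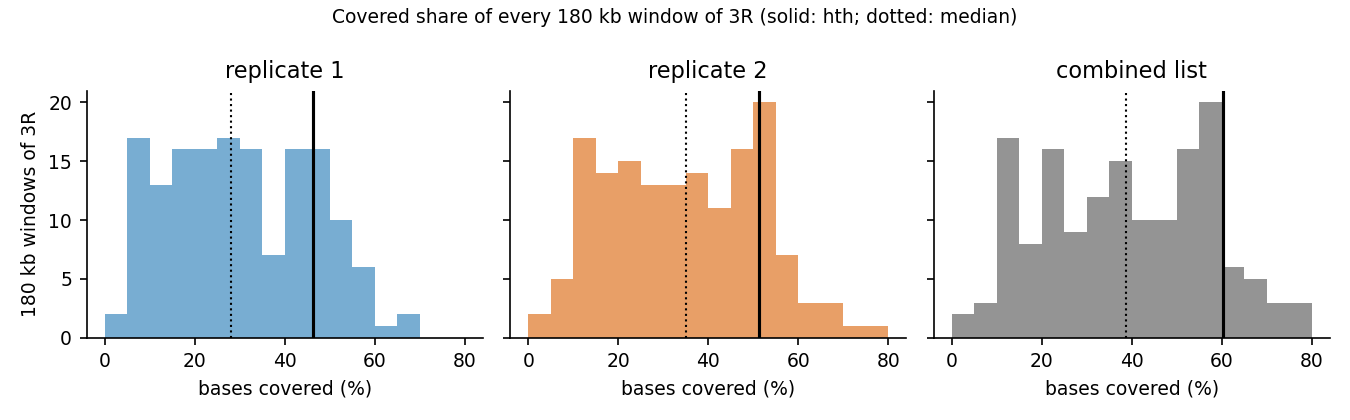
Histograms of the covered share (x axis, in percent of bases) of the 155 windows of 180 kb on 3R (y axis, number of windows), for each list. The solid line marks hth (46.4%, 51.2% and 60.3%) and the dotted line the median window (28.1%, 35.0% and 38.8%), so hth lies in the upper part of each distribution without being at its end.

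The windows next to hth were less covered. The window before it (3R:6120001-6300000) was covered to 25.4% in replicate 1 and 31.7% in replicate 2, and the window after it (3R:6480001-6660000) to 25.7% and 34.9%. In the combined list they stood at 33.4% and 35.8%, against 60.3% at hth. In each list hth therefore lay above both neighbours. Their own values were near the median window of the arm.

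The rank of hth differed with the measure. Widths include parts outside a window, so a region that crosses an edge counts in each window it meets. In replicate 1 this holds for a region of 60.7 kb. By its widest region hth ranked 7th in replicate 1 (28.5 kb), 55th in replicate 2 (13.5 kb) and 14th in the combined list (28.6 kb), since replicate 2 divided the wide domain. By the number of regions it ranked 33rd, 10th and 17th. Regions at least 10 kb wide made up 1 of 15 hth regions in replicate 1 (10.3% of the whole list), 1 of 27 in replicate 2 (6.18%) and 3 of 24 in the combined list (11.0%). With gaps cut at window edges, the longest gap of hth was shorter than that of most windows. Longer ones lay in 97, 132 and 137 of the other 154 windows. By coverage and by gaps hth was filled in more than the typical window in every list.

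Scores at hth were ordinary for 3R. Per covered base, mean scores of 0.86, 0.78 and 0.70 were found in replicate 1, replicate 2 and the combined list, against medians over windows of 0.85, 0.82 and 0.73. By its highest score hth ranked 103rd, 88th and 94th of the 155 windows. The median score percentile of the hth regions within their own list was 46.7 in replicate 1 and 52.2 in replicate 2, or 49.5 ± 3.90 (SD, n = 2), and 47.1 in the combined list. Among regions of like width it was 41.2, 51.6 and 41.9. In each list the window thus ranked higher by covered share than by score.

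**Figure D4:**
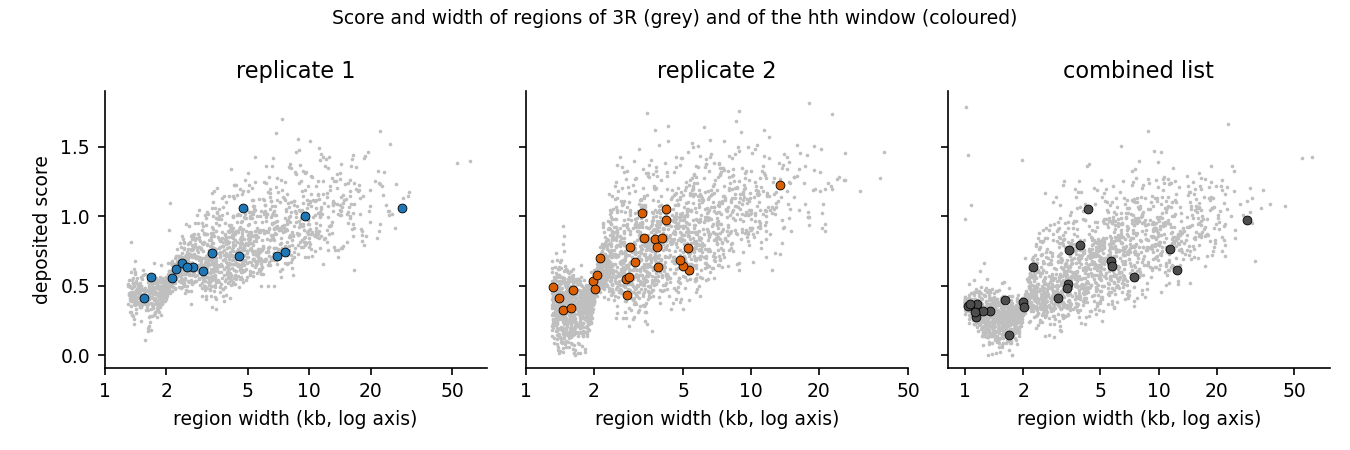
Deposited score (y axis) against region width (x axis, in kb, log axis) for the regions of 3R in grey and those of the hth window in colour, in each list. The hth regions lie within the cloud of 3R regions, and the widest of them (28.5 kb, 13.5 kb and 28.6 kb) stand at the right of each panel at scores of 1.06, 1.23 and 0.98.

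The run at hth was among the longest of the arm. With regions joined across 5 kb, 3R held 673 and 624 runs in the replicates and 615 runs in the combined list, with median lengths of 8.34, 8.89 and 9.79 kb. The run at hth ranked 3rd in replicate 1, where the longest measured 113.7 kb, and 8th in replicate 2, where the longest measured 141.8 kb. In the combined list it ranked 8th, below a longest run of 188.6 kb. Over X, 2L, 2R, 3L and 3R together its ranks were 9, 32 and 49. Joined across 3 kb it ranked 29th and 12th on 3R in the replicates and 2nd in the combined list, and across 10 kb it ranked 16th, 19th and 23rd.

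**Figure D5:**
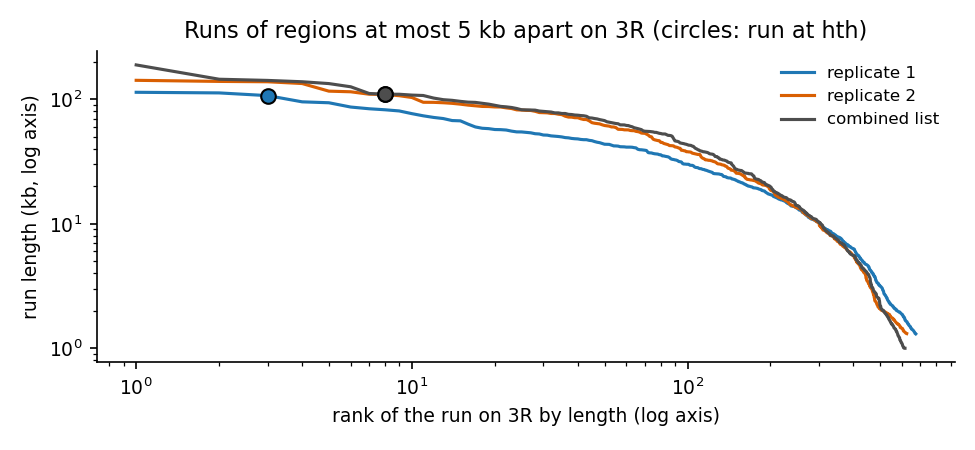
Length of every run of regions at most 5 kb apart on 3R (y axis, in kb, log axis) against its rank (x axis, log axis), for both replicates and the combined list, with circles at the run at hth. The circles stand at rank 3 in replicate 1 (106.9 kb) and at rank 8 in replicate 2 (109.2 kb) and the combined list (109.7 kb), where those of the last 2 lists overlap.

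Set beside other long runs, the run at hth had a modest highest score. Runs of at least 50 kb on 3R numbered 34 and 73 in the replicates and 88 in the combined list. Their median highest scores were 1.21, 1.32 and 1.13, against 1.06, 1.23 and 1.05 at hth, and 8, 26 and 30 of them had a lower highest score than hth. By filling, 7 of them in replicate 1 and 25 in replicate 2 were less covered than the run at hth, but 64 were in the combined list. In the replicates the run at hth was therefore long and more interrupted than most runs of its class.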

How the data were processed

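Alignment used Bowtie 0.12.7, according to the submitters' processing notes, and regions are on FlyBase release 5, per the file headers. The region caller, its threshold and the making of the combined list are not given in the sources used. The deposited score is the authors' own value per region. Its scale is not stated: among the 50 most repeated scores, differences from the commonest matched the log2 of a ratio of whole numbers (60 at most, tolerance 1e-06) in 67.3%, 79.6% and 34.7% of 49 cases (replicate 1, replicate 2, combined list), and on natural log or log10 ratios in at most 2.04%. Scores were therefore not transformed, and within each list they were ranked, averaged or given as they stand. Scores of different lists at a site are printed side by side but not compared.

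Regions named depleted were set aside. Coverage was counted per base, and overlap meant at least 1 shared base. Percentiles give the share of regions or windows with a lower value. With 2 ChIP samples in 1 group no test was made, and the mean and SD over the replicates are given. The labels do not say that the replicates came from separate cultures, so their spread may be technical. Region lists of the inputs were not used. Regions were named by a rule: in the combined list, those at least 5 kb wide, the 3 highest scores and the 3 longest gaps. Others are named as chosen after their values were seen. The locus and the measures were chosen with earlier results of these data known. Alternatives were the combined list, merging across 500 bases, the higher-scoring 50% of each list, 50% reciprocal overlap, windows at every 10 kb or on 5 arms, a window 10 kb shorter at either end, ranks within width groups, and each replicate alone. Interval functions were tested on simulated data.

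Python 3.11.15, NumPy 2.4.6, pandas 2.3.3, SciPy 1.17.1, statsmodels 0.14.6 and Matplotlib 3.10.9 were used.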

Additional observations from a re-analysis of the deposited data

How the results depend on the processing

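Of 36 values recomputed under alternatives other than single replicates, 21 moved by no more than the SD of the replicates (counts: by no more than 1.5 times), and 15 moved further. In the combined list coverage of the window was 60.3%, its percentile among 3R windows 90.9, its longest gap 18.6 kb, the span of the run 109.7 kb and the covered share of the run 89.4%. With the higher-scoring 50% of each list, coverage was 36.2%, the percentile 78.2, the number of regions 11 and the shared bases 70.4%. Removing regions lowers coverage and their number by construction. With 50% reciprocal overlap, 60% of the hth regions of replicate 1 and 33.3% of those of replicate 2 met the other replicate. The mean was 46.7%. The same share over the whole lists was not computed, so nothing particular to hth can be read from it. Without 10 kb at either end the window was covered to 53.2%, since the ends are sparse. Joining across 3 kb gave a mean span of 55.8 kb, covered to 85.7%, and joining across 10 kb gave 115.8 kb, covered to 73.3%. The joining distances and all alternatives for the run were added after seeing the data. The cause of the other shifts was not tested.

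With a single replicate, coverage ran from 46.4% to 51.2%, the percentile from 79.9 to 82.5, the number of regions from 15 to 27, the widest region from 13.5 to 28.5 kb and the longest gap from 24.4 to 42.4 kb. Shared bases ran from 74.3% to 82.1%, overlapping regions from 70.4% to 100%, the median score percentile from 46.7 to 52.2, the span of the run from 106.9 to 109.2 kb and its covered share from 75.7% to 78.1%. No paired analysis was possible because the results come from no test and the inputs have no list here. Regions narrower than 1301 bases in the replicates and 1001 in the combined list do not occur in these lists, and read depth, which sets what could be called, is unknown.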
